A study of Rattus norvegicus with 6 samples.

Results

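The microRNAs of the miR-17-92 and miR-106b-25 clusters were measured in matched arterial and venous plasma of 3 rats. They are the 9 mature microRNAs whose names on the array are rno-miR-17-5p, rno-miR-18a-5p, rno-miR-19a-3p, rno-miR-19b-3p, rno-miR-20a-5p and rno-miR-92a-3p (miR-17-92) and rno-miR-106b-5p, rno-miR-93-5p and rno-miR-25-3p (miR-106b-25). They were chosen by name, not by their values, and all 9 were found among the 758 rat microRNAs of the array. The rats were untreated male Sprague-Dawley (SD) rats aged 10 weeks, with no genetic change stated. From each rat, blood was drawn from the abdominal aorta (the arterial group, 3 samples) and from the postcava (the venous group, 3 samples), and samples with the same rat number came from the same animal. The study asked whether the microRNA profile of plasma differs between the arterial and the venous side of the circulation. Each plasma, collected in EDTA tubes, centrifuged repeatedly and filtered, was hybridized to 1 single-colour Agilent array, and 6 arrays set the precision of what follows.

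A microRNA is cut from a hairpin in a longer primary transcript and is loaded into an Argonaute protein, where its seed (bases 2 to 8) pairs with target mRNAs. miR-17-92 and miR-106b-25 are polycistrons: the hairpins of a cluster are transcribed together, and the mature strands are then made and turned over separately. miR-17-92 is known as an oncogenic cluster that is switched on by MYC and E2F factors, and its members restrain cell cycle inhibitors such as Cdkn1a and the death factor Bcl2l11. miR-106b-25 is the related cluster that lies in an intron of Mcm7, a subunit of the replicative helicase. Several members of both clusters, with miR-92a, miR-25 and miR-93 among them, are also abundant in red blood cells, which are a known source of microRNAs in plasma.

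The mature sequences are shown because members of different transcripts share a seed, and members of 1 transcript carry different seeds. They come from RefSeq (rat assembly GRCr8), where all 9 members matched by name, and the seed is in capitals. The miR-17 seed AAAGUGC was carried by 4 members, 2 from each cluster.
rno-miR-17-5p: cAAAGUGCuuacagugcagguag
rno-miR-20a-5p: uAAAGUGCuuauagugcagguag
rno-miR-106b-5p: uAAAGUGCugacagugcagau
rno-miR-93-5p: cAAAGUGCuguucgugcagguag
The miR-18 seed AAGGUGC was carried by 1 member, and no other of the 693 mature rat sequences in the RefSeq table had it.
rno-miR-18a-5p: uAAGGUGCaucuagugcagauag
The miR-19 seed GUGCAAA was carried by 2 members, both of miR-17-92.
rno-miR-19a-3p: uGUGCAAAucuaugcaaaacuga
rno-miR-19b-3p: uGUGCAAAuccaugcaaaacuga
The miR-92 seed AUUGCAC was carried by 1 member of each cluster.
rno-miR-92a-3p: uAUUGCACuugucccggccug
rno-miR-25-3p: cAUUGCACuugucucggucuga

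Outside the seed, members of 1 family were close in sequence, which bears on how well an array can separate them. Counting from the 5′ end, with the base of the first-named microRNA first, rno-miR-19a-3p and rno-miR-19b-3p differed by U11C alone. rno-miR-17-5p and rno-miR-20a-5p differed by C1U and C12U. rno-miR-17-5p and rno-miR-93-5p, which come from different transcripts, differed by U10G, A11U, C12U and A13C. rno-miR-92a-3p and rno-miR-25-3p differed by U1C, C14U and C18U over the 21 bases they share. Cross-hybridization between such near-identical sequences was not tested.

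In GRCr8 the 6 mature sequences of miR-17-92 lie on the plus strand of chromosome 15, at chr15:98587861-98588622, in the order 17-5p, 18a-5p, 19a-3p, 20a-5p, 19b-3p and 92a-3p, and no other gene of the RefSeq table spans them. The 3 of miR-106b-25 lie on the minus strand at chr12:22156652-22157123, inside Mcm7. Identical copies of rno-miR-17-5p, rno-miR-19b-3p and rno-miR-92a-3p are also encoded on the minus strand at chrX:137342945-137343637, in the miR-106a-363 cluster, beside Mir20b and Mir363. For these 3 members the array cannot tell the transcript of origin, and the grouping by transcript below places them in miR-17-92. These coordinates belong to GRCr8, whereas the array files name the older build rn4.

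Levels below are log2 intensities after quantile normalization, which gives every array the same distribution of values, and differences are arterial minus venous within a rat. Feature Extraction, the image analysis software, called 7 of the 9 members detected on all 6 arrays, among 126 of the 758 microRNAs of which this was true. rno-miR-19a-3p was detected on 5 arrays (3 arterial, 2 venous) and rno-miR-18a-5p on 3 (2 arterial, 1 venous), while 557 microRNAs of the array were detected on none. The arrays called between 137 and 175 microRNAs detected, no spot was saturated, and 8.72 to 10.4% of spots were flagged as outliers and left out. The 4 arrays of rats 1 and 2 shared a slide and a scan, while rat 3 had a slide and a scan of its own, so arterial and venous samples were balanced over slides but rat 3 and its slide cannot be told apart. A level in plasma does not tell how many cells released a microRNA from how much each released, and no marker list was used that would separate arterial from venous plasma.

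No member passed the test between arterial and venous plasma. limma with the rat as a block called 0 members at the study's unadjusted cutoff of 0.025, beside 0.264% of all 758 microRNAs lower and 0.528% higher in arterial plasma. At a Benjamini-Hochberg adjusted p of 0.05, limma called 0 members and 0% of all microRNAs, and the unadjusted p was above 0.05 for every member. The methods' t-test, which is the plain paired test of the study, called 0 members as well. When limma was fitted to the 126 microRNAs detected on all arrays alone, 0 members and 2.38% of the 126 passed the unadjusted cutoff. The mean difference was below 0 for all 9 members, a direction shared by 52.4% of the 126 microRNAs detected on every array. Since 3 pairs allow no exact two-sided permutation p under 0.25, the values of each member in each rat are given.

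Among the members with the miR-17 seed, which is known to restrain the cyclin-dependent kinase inhibitor Cdkn1a, rno-miR-17-5p had log2 levels of 4.98, 4.23 and 4.49 in arterial and 5.14, 5.00 and 4.98 in venous plasma of rats 1, 2 and 3. The arterial value was the lower of the pair in every rat, by 0.16 to 0.77, and the highest arterial value met the lowest venous value. The arterial mean was 4.56 ± 0.38 and the venous mean 5.04 ± 0.088 (SD, n = 3 each). The mean difference of -0.47 (SE 0.17, 95% interval -1.13 to 0.19) corresponded to an arterial level of 0.720 times the venous level, and its limma p of 0.0946 was the smallest among the members (adjusted p = 1).

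rno-miR-93-5p, which has the same seed but comes from miR-106b-25, had log2 levels of 5.61, 4.77 and 5.18 in arterial and 5.79, 5.68 and 5.48 in venous plasma of rats 1, 2 and 3. It too was lower in the arterial plasma of each rat, most in rat 2, although the groups overlapped. The mean levels were 5.19 ± 0.42 and 5.65 ± 0.16 (SD, n = 3 each), with a mean difference of -0.47 (SE 0.22, 95% interval -1.33 to 0.39). These were the only members lower in the arterial plasma of all 3 rats, and none was higher in all 3. Of the 126 microRNAs, 10.3% had the arterial value lower in each rat and 9.52% had it higher in each.

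The differences of the remaining members with this seed did not have 1 sign. rno-miR-20a-5p, of miR-17-92, had log2 levels of 5.20, 4.91 and 5.31 in arterial and 5.48, 5.66 and 5.14 in venous plasma of rats 1, 2 and 3. rno-miR-106b-5p, of miR-106b-25, had levels of 4.71, 4.49 and 4.71 in arterial and 4.99, 4.98 and 4.64 in venous plasma. In both, the arterial value was the lower one in rats 1 and 2 and the higher one in rat 3, and the groups overlapped. Their mean differences were -0.29 (SE 0.26, 95% interval -1.30 to 0.72) and -0.23 (SE 0.16, 95% interval -0.85 to 0.38).

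The members with the miR-19 seed had the mean differences nearest to 0 together with rno-miR-18a-5p. rno-miR-19b-3p had log2 levels of 5.97, 5.996 and 6.16 in arterial and 6.25, 6.25 and 5.90 in venous plasma of rats 1, 2 and 3. The arterial value was lower by 0.27 and 0.25 in rats 1 and 2 and higher by 0.26 in rat 3, so the differences cancelled (mean -0.088, SE 0.17, 95% interval -0.75 to 0.57). rno-miR-19a-3p had levels of 3.29, 3.67 and 3.73 in arterial and 3.22, 4.11 and 3.42 in venous plasma. It was lower in arterial plasma only in rat 2, and its mean difference was -0.024 (SE 0.21, 95% interval -0.86 to 0.81).

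rno-miR-18a-5p, the one member with the miR-18 seed, had log2 levels of 2.37, 2.06 and 2.52 in arterial and 2.74, 3.09 and 1.42 in venous plasma of rats 1, 2 and 3. Its differences ran from -1.03 in rat 2 to 1.098 in rat 3, the widest range of any member. The mean difference of -0.10 had a 95% interval of -2.47 to 2.27. Only 9 of its 96 spots over all arrays were well above background. On the venous array of rat 2 these were 2 and 6 of the 8 spots of its probes, 1 spot passed in the arterial plasma of rat 3 and none on the other arrays, so its levels there lie near background.

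Of the members with the miR-92 seed, rno-miR-92a-3p had log2 levels of 7.50, 7.39 and 8.23 in arterial and 7.82, 7.64 and 8.23 in venous plasma of rats 1, 2 and 3. Rat 3 was the highest in both kinds of plasma, with the same normalized value in each, and the spread between rats exceeded the difference within any of them. The equal values in rat 3 reflect an equal rank on its arrays. Before normalization the intensities there were 292 in arterial and 158 in venous plasma. The mean difference was -0.19 (SE 0.095, 95% interval -0.57 to 0.18), the smallest SE of the 9 members. rno-miR-25-3p, its counterpart in miR-106b-25, had levels of 6.34, 5.97 and 6.34 in arterial and 6.61, 6.41 and 6.08 in venous plasma. The arterial value was lower in rats 1 and 2 and higher in rat 3, with a mean difference of -0.15 (SE 0.20, 95% interval -0.94 to 0.65).

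**Figure D1:**
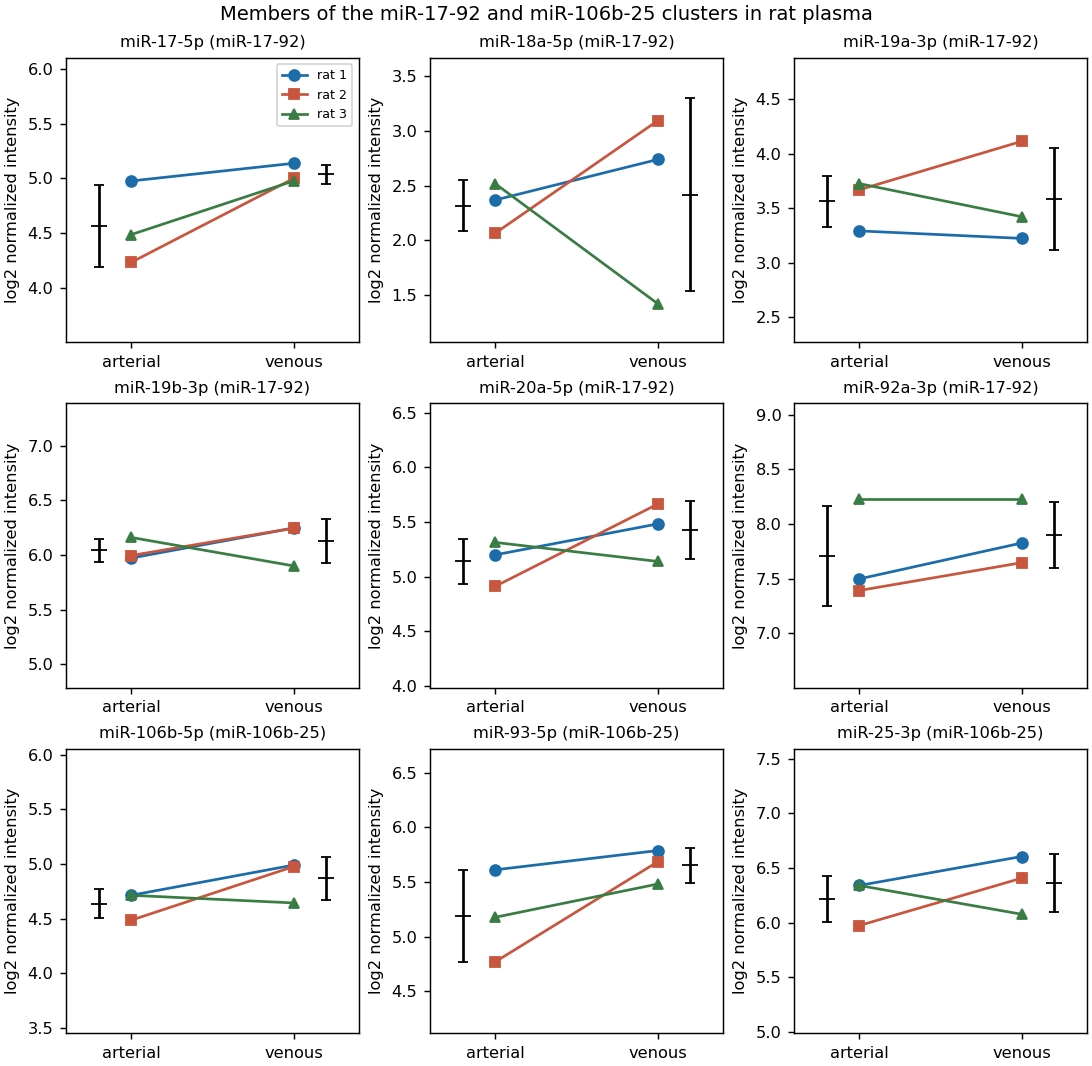
Log2 quantile-normalized intensity of each member in arterial and venous plasma, with 1 line per rat and the mean ± SD (n = 3) of each group in black; every panel spans the same number of log2 units around its own centre. rno-miR-17-5p and rno-miR-93-5p are higher in venous plasma in all 3 rats, whereas 6 of the other members are lower there in rat 3.

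Taken over the 9 members, the median difference was -0.27 in rat 1, -0.49 in rat 2 and 0.17 in rat 3, beside -0.13, 0 and 0.017 over the 126 detected microRNAs. In rat 2 the arterial value was the lower one for all 9 members, against 58 of the 126. In rat 1 it was lower for 8 of 9 members (76 of the 126), and in rat 3 for 2 of 9 (56 of the 126). The 2 clusters gave similar values, with medians of -0.28, -0.60 and 0.22 for miR-17-92 and of -0.27, -0.49 and 0.070 for miR-106b-25 in rats 1, 2 and 3. The median of the members' mean differences was -0.19, against -0.004 for the 126, and the median SD of the differences over rats was 0.36 for members and 0.37 for the 126.

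These values rested on single rats. Without rat 3, the median member difference was -0.38, limma called 2 members at the unadjusted cutoff (rno-miR-19b-3p and rno-miR-92a-3p) beside 2.24% of all 758 microRNAs in that fit. In it, 8 of 9 members were lower in arterial plasma of both remaining rats, as were 29.4% of the 126 microRNAs. Leaving out rat 3 equals keeping the first slide alone. Without rat 2 the median was -0.054 and without rat 1 it was -0.13, with 7 of 9 mean differences below 0 in each case. The second slide holds rat 3 alone, in which 6 members were higher and 2 lower in arterial plasma.

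**Figure D2:**
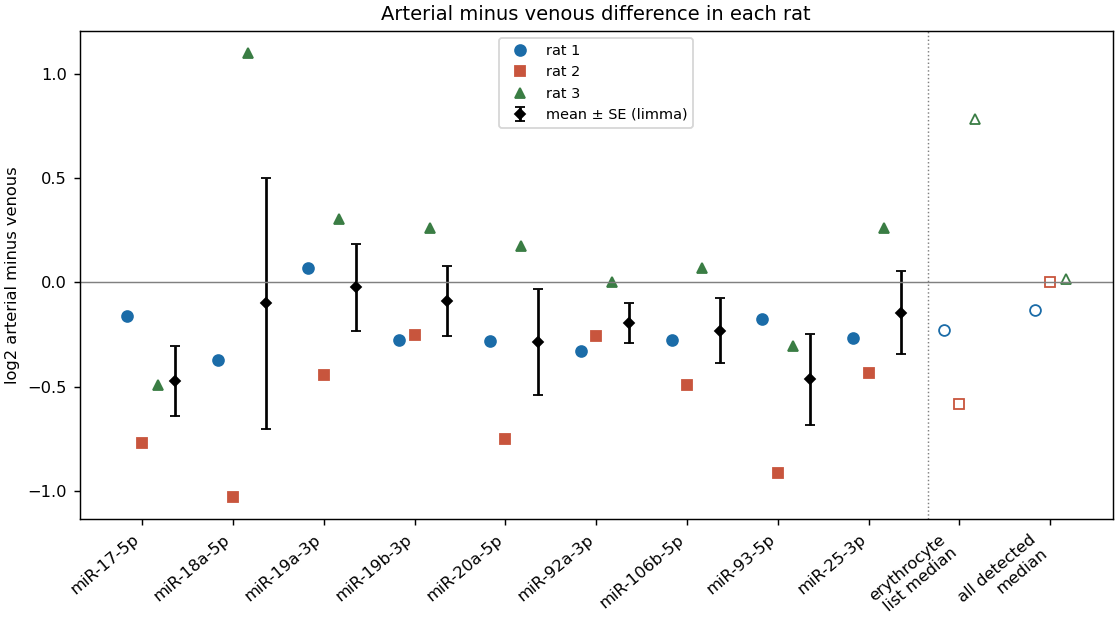
Log2 difference, arterial minus venous, of each member in each rat, with limma's mean ± SE in black; open symbols give the medians of the erythrocyte list and of the 126 microRNAs detected throughout. Rats 1 and 2 lie mostly below 0 and rat 3 mostly above it, for the members and for the erythrocyte list.

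The median of the red blood cell markers had the sign of the members' median in each rat, but its microRNAs did not move as one. Of 5 erythrocyte microRNAs on the array, 4 were detected on all arrays (rno-miR-451-5p, rno-miR-144-3p, rno-miR-486 and rno-miR-16-5p) and rno-miR-144-5p on none. The median difference of the list was -0.23, -0.58 and 0.79 in rats 1, 2 and 3, and over its 4 detected microRNAs alone it was -0.23, -0.54 and 0.51. rno-miR-144-3p and rno-miR-16-5p had the arterial value lower in rats 1 and 2 and higher in rat 3. rno-miR-486 had it lower in every rat, by 0.47 in rat 3, and rno-miR-451-5p differed only in rat 3. Before normalization, the summed intensity of the list ranged from 2146 to 2477 in arterial and from 765 to 3605 in venous plasma. The summed intensity of the 9 members ranged from 483 to 622 and from 303 to 816, and both sums were highest in the venous plasma of rat 2 and lowest in that of rat 3. The sum over the 126 detected microRNAs was also lowest there, at 7083, was 19538 in the venous plasma of rat 2 and was highest in the arterial plasma of rat 1, at 20943.

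A commonly used index of red cell lysis, the log2 ratio of rno-miR-451-5p to rno-miR-23a-3p, was 2.78, 1.66 and 1.89 in the arterial and 2.49, 1.66 and 1.24 in the venous plasma of rats 1, 2 and 3. The arterial index was the higher one in rats 1 and 3 and equal in rat 2, so it did not follow the members' median, which was below 0 in both rats 1 and 2. After normalization rno-miR-451-5p had the same value on 5 arrays, where it held the same rank, which limits this index. Before normalization the index differed by -0.10, -0.39 and 0.69. As a ratio within an array, it is free of a scale factor common to the array. Its sign was that of the members' normalized median (-0.27, -0.49 and 0.17) in each rat. The members' median before normalization was 0.46, -0.90 and 0.97, with the opposite sign in rat 1. That median includes the shift between arrays, which was 0.63, -0.29 and 0.84 over the 126 detected microRNAs. Platelet and leukocyte microRNAs (6 on the array, 5 detected on all arrays) had median differences of -0.18, -0.20 and 0.61, and a summed intensity of 713 to 810 in arterial and 443 to 1018 in venous plasma. As for the erythrocyte list, these medians had the sign of the members' normalized median in each rat, but the microRNAs of the list were split. In rat 2, 3 were lower in arterial plasma and 2 were higher, rno-miR-126a-3p by 0.40 and rno-miR-126a-5p by 0.17. rno-miR-150-5p was lower in every rat, by 0.58 in rat 3. The sum of the platelet and leukocyte list was likewise highest in the venous plasma of rat 2 and lowest in that of rat 3. The part of these cell types in the members' differences was not tested.

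The direction of the members depended on the scaling between arrays. Before any normalization, all 9 members were brighter in the arterial sample of rats 1 and 3, by 0.40 to 0.83 and by 0.42 to 1.61 on the log2 scale. In rat 2 all 9 were dimmer in it, by values from -1.35 to -0.52. The 126 microRNAs detected on every array shifted the same way, with medians of 0.63, -0.29 and 0.84 in rats 1, 2 and 3, beside 0.46, -0.90 and 0.97 for the members. Without normalization the mean difference was below 0 for 2 of 9 members only (rno-miR-17-5p and rno-miR-93-5p), the median over members was 0.21 and that over the 126 was 0.40. Relative to that common shift, the mean over rats lay lower in arterial plasma for all 9 members. The median of the members' means minus that of the 126 was -0.20, against -0.19 after quantile normalization. This did not hold in each rat, since in rat 3 the members' median of 0.97 lay above the 0.84 of the 126.

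**Figure D3:**
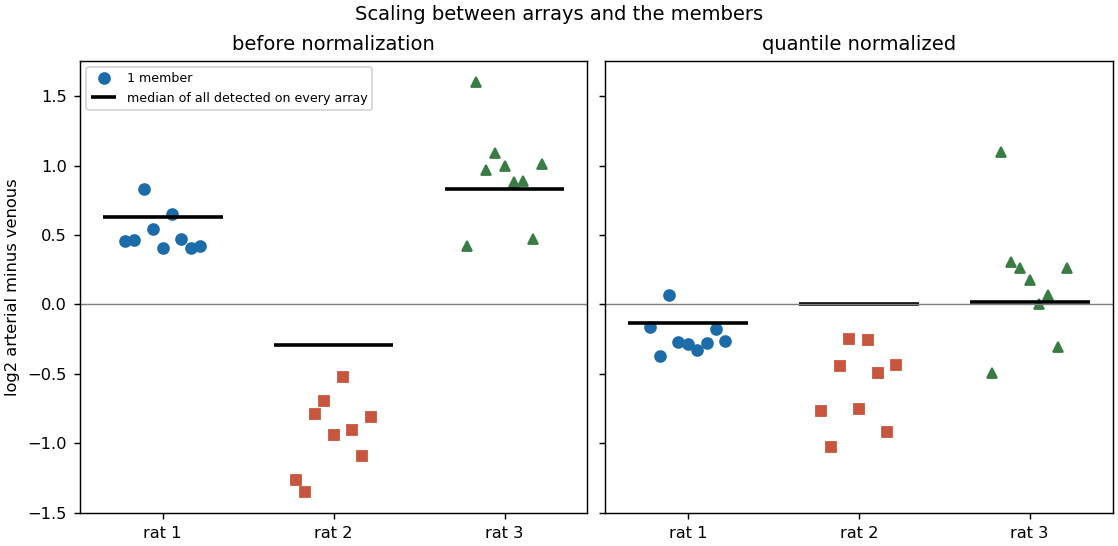
Log2 arterial minus venous difference of the 9 members in each rat, before normalization between arrays (left) and after quantile normalization (right), with a black bar for the median over the 126 microRNAs detected throughout. Before normalization every member lies above 0 in rats 1 and 3 and below 0 in rat 2; after it the bars lie at -0.13, 0 and 0.017 and all members of rat 2 lie below theirs.

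Members of 1 primary transcript were compared with members of 1 seed by the gap between pairs of members, which is the absolute difference between their arterial minus venous differences in a rat. Pairs that share a seed but not a transcript (5 pairs) had a mean gap of 0.20 ± 0.13 (SD, n = 3 rats), and pairs that share both (3 pairs) one of 0.25 ± 0.094 (SD, n = 3 rats). Pairs that share only the transcript (15 pairs) had a gap of 0.39 ± 0.22 (SD, n = 3 rats), and pairs that share neither (13 pairs) one of 0.32 ± 0.17 (SD, n = 3 rats). Compared within rats, the pairs that share only a seed had a smaller mean gap than those that share only a transcript, at 0.061 against 0.16, 0.21 against 0.40 and 0.32 against 0.60 in rats 1, 2 and 3. This difference, 0.19 ± 0.093 (SD, n = 3 rats), was larger than its spread between rats, as was that between pairs that share neither and pairs that share only a seed, 0.12 ± 0.041 (SD, n = 3 rats). For both, 3 rats allow no exact two-sided permutation p under 0.25.

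The gap within a transcript was narrower without rno-miR-18a-5p and rno-miR-19a-3p, the dim members of miR-17-92. Among the 7 members detected on all arrays, pairs that share only a transcript (7 pairs) had a gap of 0.27 ± 0.17 (SD, n = 3 rats), beside 0.20 ± 0.13 for a shared seed alone, 0.28 ± 0.21 for both (2 pairs) and 0.24 ± 0.16 for neither (7 pairs). In these the gap for a shared transcript alone exceeded that for a shared seed alone by 0.071 ± 0.081 (SD, n = 3 rats), less than the spread between rats. The gap for neither exceeded that for a shared seed alone by 0.045 ± 0.11 (SD, n = 3 rats), also less than that spread, and was the smaller one in rat 3 (-0.036). The pairs that share only a seed hold neither of the dim members, whereas the other kinds of pairs do. This restriction was chosen after seeing the data. Over all 7875 pairs of the 126 microRNAs the gap was 0.54 ± 0.13 (SD, n = 3 rats), against 0.32 ± 0.18 for all 36 pairs of members. The values of 1 rat come from the same arrays, and the pairs share members, so they are not independent.

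Single pairs varied within each kind. The pair of rno-miR-17-5p and rno-miR-93-5p, of 1 seed and different transcripts, had gaps of 0.014, 0.15 and 0.19 in rats 1, 2 and 3. rno-miR-20a-5p and rno-miR-106b-5p, likewise of 1 seed and different transcripts, had gaps of 0.0064, 0.26 and 0.10. rno-miR-17-5p and rno-miR-20a-5p, which share both seed and transcript, were 0.12 and 0.015 apart in rats 1 and 2 but 0.67 apart in rat 3, where the first was lower and the second higher in arterial plasma. rno-miR-106b-5p and rno-miR-93-5p, which also share both, were 0.10, 0.42 and 0.37 apart.

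The gaps of the other seed families were of similar size. rno-miR-19a-3p and rno-miR-19b-3p, which differ by 1 base, were 0.34, 0.19 and 0.043 apart in rats 1, 2 and 3. rno-miR-92a-3p and rno-miR-25-3p were 0.064, 0.18 and 0.26 apart.

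**Figure D4:**
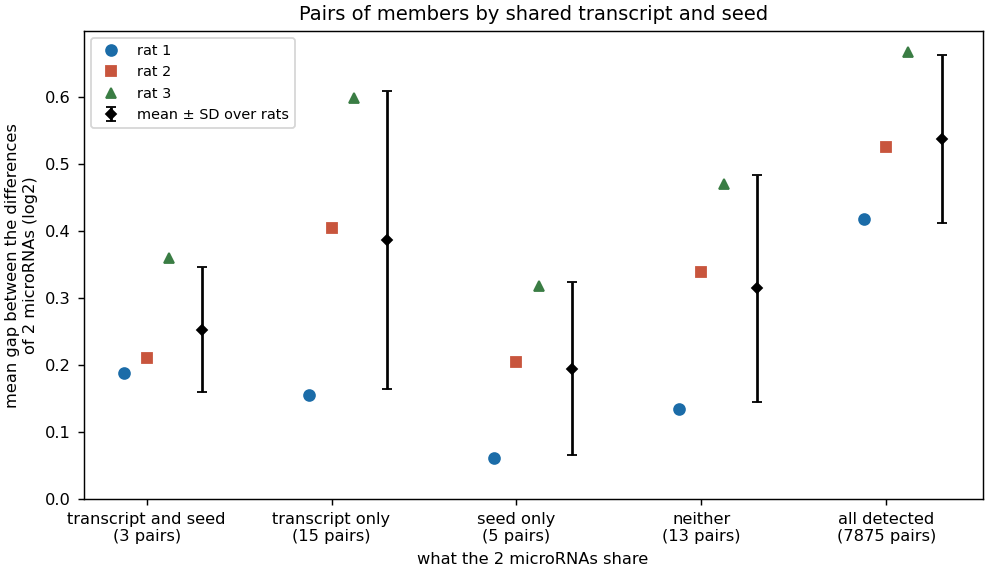
Mean gap between the arterial minus venous differences of 2 members in each rat, by what the 2 members share, with the mean ± SD over rats in black; the last column holds all pairs of the 126 microRNAs detected on every array. Rat 3 has the largest gap and rat 1 the smallest in every column, and the bars of the 4 kinds of member pairs overlap.

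Across the 6 arrays, most of the members detected everywhere lay near a common profile, with rno-miR-92a-3p the farthest from it. With each member centred on its own mean, the mean over the 7 members was lowest in the arterial plasma of rat 2 (-0.38 ± 0.19, SD over members) and highest in the venous plasma of rats 1 and 2 (0.23 ± 0.12 and 0.17 ± 0.17). The other 3 samples lay between -0.018 and 0.001. The arterial sample of rat 2 was the lowest of the 6 for 6 of all 9 members, and the venous sample of rat 1 the highest for 5. By distance from this profile (root mean square of the centred log2 values over the 6 arrays), the members ranged from 0.071 for rno-miR-106b-5p to 0.32 for rno-miR-92a-3p, whose levels lay above the profile in both samples of rat 3.

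Among the 119 microRNAs that are no member and were detected on all arrays, rno-miR-425-5p lay nearest to the members' profile, at a distance of 0.088, against a median of 0.45. Its log2 levels were 3.73, 3.39 and 3.83 in arterial and 4.01, 3.99 and 4.01 in venous plasma of rats 1, 2 and 3. The arterial value was lower in every rat and the groups did not overlap, with a mean difference of -0.36, which the choice by the profile used and which was therefore not tested. Next came rno-miR-30e-5p (0.15), rno-miR-327 (0.18), rno-miR-30d-5p (0.19) and rno-miR-3473 (0.20). rno-miR-3473 had a normalized level of 12.13 on every array and rno-miR-327 a nearly flat one, so the measure also picks microRNAs that hardly vary. The erythrocyte markers rno-miR-486 and rno-miR-16-5p ranked 16 and 23 at distances of 0.27 and 0.30, nearer than the member rno-miR-92a-3p at 0.32. Of the others, rno-miR-451-5p ranked 35, and rno-miR-144-3p ranked 81 at a distance of 0.52.

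The other arms of the members' hairpins and the paralogous microRNAs were mostly not detected in these plasmas. Of 24 such names 19 were on the array, and 18 of them were detected on no array. Of the 19, 0 passed the unadjusted cutoff, beside 0.264% of all 758 microRNAs lower and 0.528% higher in arterial plasma. Most of the 19 lay at the floor on every array, where the difference is 0 and the test could not call them. All other arms on the array, among them rno-miR-18a-3p, rno-miR-93-3p and rno-miR-25-5p, were detected on none, while all 9 members were detected on at least 3. The remaining carriers of the miR-92 seed, rno-miR-32-5p, rno-miR-363-3p and rno-miR-92b-3p, were likewise detected on no array. The exception was rno-miR-20b-5p of the miR-106a-363 cluster, the fifth carrier of the miR-17 seed. It was detected on all 6 arrays, with levels of 4.03, 4.26 and 4.53 in arterial and 4.68, 4.76 and 4.26 in venous plasma of rats 1, 2 and 3. As for rno-miR-20a-5p, the arterial value was below the venous one in rats 1 and 2 and above it in rat 3 (mean difference -0.29, SE 0.27, limma adjusted p = 1).

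Each member was covered by 2 probes with 8 spots each, which read the same RNA on the same array. Agreement between them is therefore no replicate of the difference between arterial and venous plasma. Over the 6 arrays all 96 spots were well above background for rno-miR-19b-3p, rno-miR-20a-5p, rno-miR-92a-3p, rno-miR-93-5p and rno-miR-25-3p, and 93 and 79 were for rno-miR-106b-5p and rno-miR-17-5p. For rno-miR-19a-3p 47 spots were, of which 1 lay on the venous arrays of rats 1 and 3. The median coefficient of variation between the spots of a probe ran from 3.36% for rno-miR-92a-3p to 15.2% for rno-miR-19a-3p and 30.7% for rno-miR-18a-5p. In 26 of 27 comparisons (9 members in 3 rats) both probes gave a difference of the same sign, and in the exception, rno-miR-92a-3p in rat 3, one probe gave 0 and the other -0.25.

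The brighter probe of rno-miR-92a-3p taken alone differed by -0.30, -0.26 and -0.25 in rats 1, 2 and 3. In a separate limma fit to all 1806 probes of the array, its mean of -0.27 (SE 0.016) passed the unadjusted cutoff but not the adjustment (limma adjusted p = 0.677). No other probe of a member passed that cutoff, and the share of all probes that did is not given here. The dimmer probe gave -0.15 (SE 0.072). Probes taken alone were an alternative chosen after seeing the data.

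The ratio between the 2 probes of a member varied most from array to array for the members that were lower in the arterial plasma of every rat. For rno-miR-17-5p the log2 ratio of the brighter to the dimmer probe was 0.85, 1.21 and 1.76 in arterial and 0.85, 1.07 and 1.35 in venous plasma of rats 1, 2 and 3. For rno-miR-93-5p it was 0.88, 1.24 and 1.47 in arterial and 1.01, 0.96 and 1.18 in venous plasma. In both, the arterial sample of rat 3 had the highest ratio. It also had the highest for rno-miR-92a-3p (1.20, from 0.92 on the lowest array) and rno-miR-25-3p (0.90, from 0.71). For rno-miR-19b-3p the ratio stayed between 0.59 and 0.68 on all arrays. The dimmer probe of rno-miR-17-5p was near background in rat 3, where its spots gave 9.35 in arterial and 8.65 in venous plasma before normalization, and 1 and 3 of its 8 spots were well above background. Whether the ratio follows the rat or the slide cannot be told apart.

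**Figure D5:**
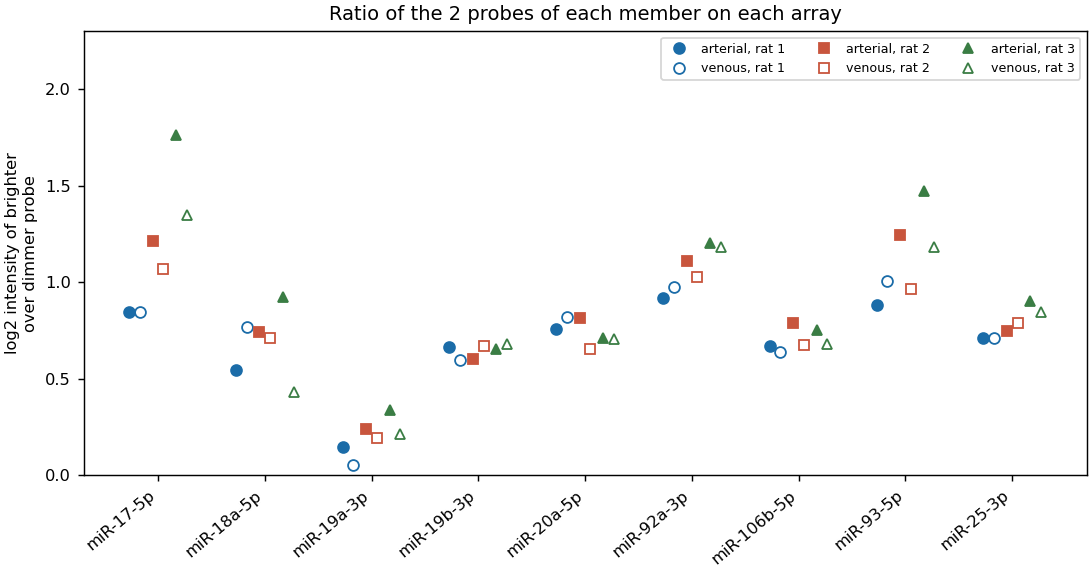
Log2 ratio of the brighter to the dimmer of the 2 probes of each member on each array, before normalization, with filled symbols for arterial and open ones for venous plasma. The 6 arrays lie close together for rno-miR-19b-3p, between 0.59 and 0.68, and spread from 0.85 to 1.76 for rno-miR-17-5p, with rat 3 highest.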

How the data were processed

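MicroRNA intensities were measured on 6 single-colour Agilent Rat miRNA V21.0 arrays, and groups were taken from the sample labels. The authors deposited the Agilent Feature Extraction output of each array, whose processed intensity has the local background subtracted but no scaling across arrays. They also deposited linear probe intensities that the authors had quantile normalized with GeneSpring. The submitters' notes give Feature Extraction 11.0.1.1 and the array files 10.7.3.1. Here, non-control spots not flagged as outliers were averaged per probe, then probes per microRNA, all as linear intensities. Quantile normalization over the 758 microRNAs, a floor of 1 and log2 followed. limma 3.58.1 (R 4.3.3; lmFit, eBayes, rat as block, two-sided, Benjamini-Hochberg adjustment over all 758) tested the differences, and Python 3.11.15 did the rest. Since many microRNAs lay at the floor, the prior of limma held 0.198 degrees of freedom. It held 3.22 in a fit to the 126 detected on all arrays, where the smallest adjusted p of a member was 0.646 (rno-miR-17-5p).

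The rat number is the replicate number in the sample titles. It was used to pair the samples because the paper describes the arterial and venous samples as matched within rats. Within a rat, deviations from the group means correlated at 0.80, 0.69 and 0.64, against -0.73 to -0.01 for samples of different rats. Such deviations cancel out over the rats of a group, so positive values within rats bring negative ones between rats. The negative values are therefore no further evidence for the pairing. The paired limma fit was also run on simulated data, for the 126 detected microRNAs only. That run did not cover the fit to all microRNAs of the array, which gave the main results. No result given here rests on it, and whether the fit finds differences as small as those of the members was not tested. The members and all lists (related arms and paralogues, erythrocyte, platelet and leukocyte, and liver markers) were chosen with earlier results of these data known. The liver list, of 2 microRNAs, had a median difference of 0.28. In it, rno-miR-122-5p was detected on all 6 arrays and differed by -0.21, 1.23 and 0.30 in rats 1, 2 and 3, while rno-miR-122-3p was detected on 1 array only. The text names the 9 members, the related arms and paralogues, the marker lists and the 5 other microRNAs nearest to the members' profile. Of the related names, rno-miR-17-3p, rno-miR-19b-5p, rno-miR-92a-5p, rno-miR-18b-5p and rno-miR-106a-5p were not found on the array. Alternatives changed the scaling, intensity, background correction, spot and probe summary, floor, filter, test, block and rats used. Normexp used the median spot intensity, since no mean is in the files used here.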

Additional observations from a re-analysis of the deposited data

How the results depend on the processing

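Of 19 alternatives for the number of members at an adjusted p of 0.05, each gave 0, as the main setting did. At the unadjusted cutoff of 0.025 the main count of 0 became 1 with the 75th percentile over detected microRNAs (rno-miR-93-5p) and with the brightest probe (rno-miR-92a-3p), 2 with the authors' table and with normexp, and 0 to 2 with 1 rat left out. Calls over all 758 microRNAs also grew in these fits, from 6 in the main setting to 9, 11, 12, 13 and 17 to 33 in that order. The count of members lower in all rats, 2 in the main setting, was 4 with the authors' table and with the brightest probe, 0 with the 75th percentile over all microRNAs and without normalization, and 2 to 8 with 1 rat left out. The median member difference (main -0.19) was 0.21 without normalization. It lay between -0.38 and -0.054 under the other alternatives. Without the rat as a replicate block, in place of the paired fit, the count at the cutoff was 0 and rno-miR-17-5p kept its difference of -0.47 with an SE of 0.22; the block changed no member's call. The gap between pairs that share only a transcript, both, or neither was 0.098, 0.094 and 0.10 with normexp, whose offset shrinks differences of dim microRNAs by construction, and 1.05, 0.61 and 0.86 with the total gene signal, for which the cause was not tested.

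Without normalization 7 members were higher in arterial plasma, at 0.15 for rno-miR-106b-5p, 0.16 for rno-miR-20a-5p, 0.21 for rno-miR-25-3p, 0.24 for rno-miR-18a-5p, 0.31 for rno-miR-19b-3p and 0.34 for rno-miR-19a-3p and rno-miR-92a-3p alike, while the median over the 126 detected microRNAs shifted to 0.40. The sign of the dim rno-miR-18a-5p also turned with flagged spots kept (0.023) and with the median of spots (0.0013), and it ran from -0.70 to 0.36 with 1 rat left out. rno-miR-19a-3p turned to 0.062 in the authors' table, 0.052 with the brightest probe, 0.063 with its brighter probe alone and 1.00 with the total gene signal, and ran from -0.19 to 0.19 with 1 rat left out. rno-miR-19b-3p ran from -0.26 to 0.0047 with 1 rat left out. In the mean over the rats used, rno-miR-17-5p and rno-miR-93-5p were lower in arterial plasma under all alternatives run, from -0.63 to -0.13 and from -0.61 to -0.072. This did not hold in each rat. Without normalization rno-miR-17-5p differed by 0.46, -1.27 and 0.42 and rno-miR-93-5p by 0.41, -1.09 and 0.47 in rats 1, 2 and 3. The cause of the changes of sign was not tested. With 3 rats, the 95% intervals of the 9 members left room for differences of at least 0.57 on the log2 scale, and signal near background limits rno-miR-18a-5p and rno-miR-19a-3p.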
